A study of Homo sapiens with 24 samples.

Results

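This account covers 9 human genes of interferon signalling in HCT116 cells, a colorectal carcinoma line. They are 4 ligands (IFNB1, IFNL1, IFNL2 and IFNL3), 2 receptor chains (IFNAR1 and IFNLR1) and 3 transcription factors (STAT2, IRF7 and IRF9), chosen by symbol out of the 58735 genes in the count tables. All 9 matched a single row. RNA-seq was run on 24 libraries in 8 groups of 3, from a WT line, a UHRF1-AID line, a DNMT1-AID line and a compound UHRF1-AID/DNMT1-AID line, each before auxin (day 0) and after 4 days of it (day 4). AID is an auxin-inducible degron, a tag through which auxin directs a protein to the proteasome with the help of the plant protein OsTIR1. UHRF1 and DNMT1 act in the maintenance of DNA methylation. All 4 lines, WT included, carry OsTIR1 under doxycycline control, and WT carries no tag on either protein. The day 4 cells had received 2 µg/mL doxycycline with 20 µM auxinole, an OsTIR1 inhibitor, for 1 day, and then doxycycline with 500 µM auxin. Per the study's methods the 3 libraries of a group are biological replicates, which for the degron lines come from 3 clones. What separates the WT replicates, and whether a replicate number stands for 1 clone on both days, is not given in the sources used here, nor is whether doxycycline was present at day 0.

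Interferons are secreted proteins that cells make when they sense foreign or misplaced nucleic acid. Type I interferons such as IFNB1 bind the receptor pair IFNAR1 and IFNAR2, which most cells carry, while the type III or lambda interferons bind IFNLR1 and IL10RB, a pair used mainly by epithelia such as the gut lining. Both receptors signal through the kinases JAK1 and TYK2 to STAT2, which acts with IRF9 in a complex called ISGF3, and ISGF3 binds the interferon-stimulated response element in front of its target genes. IRF7, itself such a target, is a factor that turns on ligand genes, so that a loop can form. In bulk RNA a change in the number of cells that transcribe a gene and a change in the RNA per cell cannot be told apart.

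The response element is shown for the ligands because the question here is whether ligand and factor transcripts move together. The promoters in the RefSeq table (build GRCh38.p14, 250 bases before to 50 after the start) were searched on both strands for GAAANNGAAA, the core of the element. IFNL1, IFNL2 and IFNL3 held it, each as its reverse complement. The lines below give 30 bases around a match, 5′ to 3′ on the strand of the gene (plus for IFNL1 and IFNL2, minus for IFNL3), with the match in capitals.
IFNL1: aggatttcagTTTCTCTTTCcttcttgatg
IFNL2: tctccatcagTTTCTCTTTCcctccagctg
IFNL3: tctccatcagTTTCTCTTTCcctccagctg
The IFNL1 stretch is chr19:39296189-39296218, that of IFNL2 is chr19:39268210-39268239 and that of IFNL3 is chr19:39245407-39245436. The match lies at -208 bases from the start of IFNL1 and at -176 bases from those of IFNL2 and IFNL3, and IFNL1 holds a further match at -214 bases that overlaps the one shown. The windows of IFNL2 and IFNL3 are identical. IFNL3 has a second start in the table, without a match. No match was found in the windows of IFNB1, IFNAR1, IFNLR1, STAT2 and IRF9, and IRF7 is not in the table. Of all 27305 genes with a promoter there, 4.38% held the motif, against 17 of the 22 listed ISGF3 target genes that have one. A match is a string of letters and no measurement of binding.

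The ligand genes were at or close to 0 in every group before auxin. IFNB1, IFNL2 and IFNL3 had 0 counts in all 12 day 0 libraries. IFNL1 had 2 counts in DNMT1-AID replicate 3 and 0 in the other 11. A sum of 0 over the 3 libraries of a group allows a level of up to between 0.0425 and 0.0514 CPM at day 0, CPM being the count of a gene scaled to the size of its library, taking 3 counts as the floor and counting error alone. Levels below that were not detectable at this depth of between 15824804 and 25073821 counts on genes per library.

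At day 4 lambda interferon reads appeared in all 3 degron lines and stayed in single figures in WT. For IFNL1 (ENSG00000182393, chromosome 19, 39296325 to 39298673), the WT libraries held 4, 0 and 0 counts, in the order of replicates 1 to 3. UHRF1-AID cells held 9, 41 and 19 counts of it. DNMT1-AID cells held 15, 10 and 6 counts. The compound line held 77, 68 and 14 counts. Every degron library was above every WT library, and replicate 3 of the compound line lay well under its 2 companions.

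IFNL2 (ENSG00000183709, chromosome 19, 39268514 to 39270092) gave 0, 0 and 3 counts in WT at day 4. It gave 5, 25 and 15 counts in UHRF1-AID, 6, 6 and 3 in DNMT1-AID cells and 40, 18 and 14 in the compound line. The degron and WT libraries touched only at 3 counts, in DNMT1-AID replicate 3 and WT replicate 3. IFNL3 (ENSG00000197110, chromosome 19, 39243553 to 39245129) gave 4, 2 and 2 counts in WT, 15, 31 and 17 in UHRF1-AID, 23, 7 and 8 in DNMT1-AID cells and 68, 33 and 12 in the compound line, with no overlap between WT and any degron line. The main transcripts of IFNL2 and IFNL3 are 97.0% identical over 708 aligned bases. Of 802 stretches of 150 bases, the read length, in that of IFNL2, 0 occur unchanged in that of IFNL3. How reads were divided between these neighbours on chromosome 19 was not tested. IFNL1 shares 78.9% of its aligned bases with IFNL2.

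IFNB1 (ENSG00000171855, chromosome 9, 21077105 to 21077963), the only type I ligand among the 9, stayed at 0 in WT at day 4. UHRF1-AID held 0, 6 and 0 counts of it, DNMT1-AID 3, 0 and 1, and the compound line 0, 8 and 0. Its reads thus came from 1 library in each line that carries the UHRF1 tag and from 2 in DNMT1-AID. In no degron line was the difference from WT past the test when genes with low counts were kept in, with edgeR adjusted p of 0.232, 0.397 and 0.0883 for UHRF1-AID, DNMT1-AID and the compound line.

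The size of the ligand difference from WT at day 4 was taken from summed counts, scaled for library size, with exact binomial 95% intervals that cover counting error only. IFNL1 was 13.8-fold higher in UHRF1-AID (5.17 to 52.2), 7.74-fold higher in DNMT1-AID (2.74 to 30.2) and 39.8-fold higher in the compound line (15.2 to 148). For IFNL3 the ratios were 6.32 (3.02 to 15.3), 4.74 (2.18 to 11.8) and 14.1 (6.94 to 33.6). For IFNL2 they were 12.03 (3.86 to 60.5), 4.99 (1.41 to 26.9) and 24.03 (7.90 to 119). The WT counts of IFNL1 are all in replicate 1 and those of IFNL2 all in replicate 3. Without replicate 1 the IFNL1 ratios become lower bounds of 12.5, 7.01 and 36.1, in the same order of lines, and without replicate 2 they are 9.14, 5.11 and 26.3. Without replicate 3 those of IFNL2 become bounds of 7.94, 3.30 and 15.9, and without replicate 1 they are 8.18, 3.39 and 16.3. The IFNL3 ratios lay between 5.56 and 8.59, 4.18 and 6.45, and 12.4 and 19.2 without 1 WT library. Against their own day 0, where the sum was 0, the ratios at day 4 are bounds at a floor of 3 counts over the group. Such bounds, here and above, allow for the 0 and give the other counts no counting error. In the compound line the bounds were 74.8 for IFNL1, 33.9 for IFNL2 and 53.2 for IFNL3. In UHRF1-AID the bounds were 24.2, 15.8 and 22.1. In DNMT1-AID they were 6.09 for IFNL2 and 15.4 for IFNL3, and IFNL1, with 2 counts at day 0, had a ratio of 18.9 (4.804 to 163). In WT, which carries no tag, they were 3.15 for IFNL3 and 1.57 for IFNL1, from 8 and 4 counts at day 4. Neither gene was past the edgeR test over time in WT with low counts kept in (adjusted p = 0.0632 and 0.216).

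The test across all genes asks whether such a difference exceeds the spread between libraries. Genes were called at an edgeR adjusted p under 0.05 with a log2 fold change past 1 in size, after a filter on low counts that the ligands often did not pass. In UHRF1-AID against WT at day 4, 5 of the 9 members were tested and 2 were called, IRF7 and IFNL3, against 6.99% of all genes tested. IFNL3 passed the filter only through UHRF1-AID, where it is high, so its call is not read against that share. IFNL3 was higher by 2.62 ± 0.584 (log2 fold change ± SE, edgeR adjusted p = 0.0146). IFNL1 and IFNL2 did not pass the filter; without it both were called (edgeR adjusted p = 1.27e-05 and 0.00109). The call of IFNL3 rested on WT replicate 2, since without that library IRF7 alone was called, and all 3 lambda genes were called without UHRF1-AID replicate 1.

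In DNMT1-AID against WT at day 4 the lambda genes did not pass the filter. Of 4 members tested, 1 was called, IRF7, against 2.57% of genes. With low counts kept in, IFNL1 (edgeR adjusted p = 0.0283) and IFNL3 (0.0433) were called and IFNL2 was not (0.334). In the compound line 7 members were tested and 4 called, IRF7 and all 3 lambda genes, against 11.7% of genes. The lambda genes passed the filter only through the compound line and had to differ, so of the 4 calls that of IRF7 alone can be read against the share. There IFNL1 was higher than in WT by 5.21 ± 1.16 (edgeR adjusted p = 0.0147), IFNL2 by 4.44 ± 0.791 (0.000223) and IFNL3 by 3.78 ± 0.724 (0.00143) on the log2 scale. Without WT replicate 2 the call of IFNL1 was lost.

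The ligand genes other than the 4 members stayed near the detection limit. None of 18, among them the interferon alpha genes, IFNE, IFNK, IFNW1, IFNG and IFNL4, passed the filter in any comparison. Their summed counts in a library reached 6 at most. Markers of leukocytes, which the list of cell types held because plasmacytoid dendritic cells are a known source of interferon, moved in part with the ligands. Their summed level over 8 genes was 0.301 to 0.638 CPM in WT at day 4, 0.423 to 0.939 in DNMT1-AID, 1.81 to 2.58 in UHRF1-AID and 2.59 to 3.5004 in the compound line. Against WT, 2 of the 8 were tested in the compound line and both were called, higher, among them CD14 at 1.00 ± 0.392 CPM (SD, n = 3). No marker passed the filter in UHRF1-AID or DNMT1-AID against WT. Both thus passed it through the compound line, and their calls are not read against a share. LILRA4 was at 0 in all 4 groups at day 4, and the pan-leukocyte gene PTPRC did not exceed a group mean of 0.499 CPM. The part of these markers in the ligand result was not tested. Of 8 colorectal epithelial markers, EPCAM, CDH1, KRT8, KRT18, KRT19 and CDX2 were over 1 CPM in every group, with VIL1 at or close to 0 and CDX1 at 0 but for UHRF1-AID (0.910 ± 0.186 CPM), DNMT1-AID (0.102 ± 0.0913) and the compound line (1.80 ± 0.216) at day 4.

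Neither receptor chain was called in any of the 16 comparisons. IFNAR1 (ENSG00000142166, chromosome 21, 33324477 to 33359862), the signal-starting chain of the type I receptor, measured 45.5 ± 1.93 CPM in WT at day 0 (SD, n = 3). At day 4 its libraries read 45.4, 48.3 and 43.3 CPM in WT, 52.3, 41.3 and 39.3 in UHRF1-AID, 40.7, 44.8 and 36.2 in DNMT1-AID cells and 38.6, 43.6 and 35.6 in the compound line. Neighbouring groups overlapped all along the order of the 8 means, which ran from 39.3 to 45.7 CPM. Against WT at day 4 the log2 differences were -0.05 for UHRF1-AID (95% interval -0.36 to 0.25), -0.17 for DNMT1-AID (-0.40 to 0.07) and -0.20 for the compound line (-0.43 to 0.03), so that in none of the 3 did the interval reach a log2 difference of 1.

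IFNLR1 (ENSG00000185436, chromosome 1, 24154157 to 24187959) is the chain particular to lambda interferons. Its levels at day 0 lay between 9.68 and 13.6 CPM. At day 4 they were 14.9, 21.1 and 12.7 CPM in WT, 20.3, 17.4 and 17.1 in UHRF1-AID, 14.4, 15.5 and 12.2 in DNMT1-AID cells and 14.7, 11.8 and 11.1 in the compound line. WT replicate 2 was the highest of all. Day 4 exceeded day 0 by 0.55 ± 0.192 in WT (log2, edgeR adjusted p = 0.0524), by 0.60 ± 0.179 in UHRF1-AID (0.0194), by 0.19 ± 0.168 in DNMT1-AID (0.393) and by 0.32 ± 0.140 in the compound line (0.0487). All 4 were under the fold required for a call. Its difference from WT at day 4 was 0.16 ± 0.198 in UHRF1-AID, -0.21 ± 0.184 in DNMT1-AID cells and -0.36 ± 0.182 in the compound line. Levels of different genes were set side by side per kilobase of exon. In the compound line at day 4 the mean of IFNAR1 was 6.23 and that of IFNLR1 2.55 CPM per kb, with IFNL1 at 3.84, IFNL3 at 3.02 and IFNL2 at 2.00. The libraries spread widely. In replicates 1 to 3 IFNL1 was at 5.52, 5.02 and 0.974, IFNL3 at 5.42, 2.71 and 0.928, and IFNLR1 at 2.98, 2.39 and 2.26. Both ligands thus lay under IFNLR1 in replicate 3. In UHRF1-AID, where IFNLR1 was at 3.71, the 3 ligands lay between 1.02 and 1.37 CPM per kb.

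IRF7 (ENSG00000185507, chromosome 11, 612553 to 615999) separated the groups most widely among the factors. Before auxin its libraries lay between 4.78 and 10.4 CPM in all 4 lines, with 6.68, 7.63 and 5.46 in WT, and the lines overlapped. No member was called between a line and WT at day 0 by edgeR. Genes called there were 0% in UHRF1-AID, 0.00723% in DNMT1-AID cells and 1.31% in the compound line. DESeq2 called no member at day 0 either, and among the 4 members tested in each line only STAT2 in the compound line, lower by 0.41 ± 0.129 on the log2 scale, had an unadjusted p under 0.05 (edgeR adjusted p = 0.121). Of 18 tested ISGF3 targets, 4 were already higher than WT in the compound line at day 0.

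By day 4 IRF7 had reached 57.8, 58.2 and 63.5 CPM in WT. It stood at 138, 210 and 166 CPM in UHRF1-AID, at 166, 121 and 134 in DNMT1-AID cells and at 232, 226 and 176 in the compound line. All 9 degron libraries were above all 3 of WT, and UHRF1-AID overlapped with both other degron lines, while all compound line libraries were above all of DNMT1-AID. Day 4 against day 0, it rose by 3.18 ± 0.160 in WT, 4.85 ± 0.187 in UHRF1-AID, 4.64 ± 0.177 in DNMT1-AID cells and 4.82 ± 0.260 in the compound line (log2 fold change ± SE), with edgeR adjusted p of 8.30e-06, 1.05e-06, 1.14e-07 and 1.94e-05. WT libraries, from cells that carry no tag, thus showed a 9.08-fold rise between the days. Those of day 0 and day 4 also lie in different alignment folders, described with the limits below. Day and folder cannot be told apart in this rise.

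Against WT at day 4, IRF7 was 2.84-fold higher in UHRF1-AID (log2 1.51 ± 0.161, edgeR adjusted p = 0.000360), 2.35-fold in DNMT1-AID (1.23 ± 0.118, 1.32e-05) and 3.58-fold in the compound line (1.84 ± 0.110, 4.32e-11). The difference between the day effects was tested directly, and IRF7 was the only member called, of 4 tested, in each of the 3 tests. Its rise exceeded that of WT by 1.63 ± 0.237 in UHRF1-AID (edgeR adjusted p = 0.00457, 2.27% of genes called), by 1.46 ± 0.224 in DNMT1-AID (0.0159, 0.139% of genes) and by 1.59 ± 0.273 in the compound line (0.00247, 5.41% of genes). The DNMT1-AID call depended on the fit. It was lost without WT day 0 replicate 1 or 2 or WT day 4 replicate 1 or 2 (edgeR adjusted p = 0.0555, 0.0773, 0.0555 and 0.0903) and with the replicate block (0.0822), while the estimate stayed between 1.32 and 1.57.

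STAT2 (ENSG00000170581, chromosome 12, 56341597 to 56360155), the subunit of ISGF3 that carries its main activation domain, moved less. Its libraries lay between 17.7 and 25.7 CPM before auxin. At day 4 they read 56.3, 62.2 and 65.1 CPM in WT, 83.6, 96.5 and 94.5 in UHRF1-AID, 105, 80.0 and 83.2 in DNMT1-AID cells and 78.4, 79.0 and 50.8 in the compound line. All libraries of both single lines were above WT, whereas compound line replicate 3 was below all 3 WT libraries. STAT2 rose from day 0 to day 4 in each line, by 1.33 ± 0.123 in WT, 2.10 ± 0.126 in UHRF1-AID, 2.19 ± 0.155 in DNMT1-AID cells and 1.94 ± 0.180 in the compound line on the log2 scale (edgeR adjusted p = 0.000170, 6.42e-06, 7.57e-06 and 2.64e-05).

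At day 4 STAT2 was above WT by 0.57 ± 0.118 in UHRF1-AID (edgeR adjusted p = 0.0102) and 0.55 ± 0.118 in DNMT1-AID (0.00962), under the fold needed for a call. In the compound line the difference was 0.20 ± 0.156 (0.352, 95% interval -0.15 to 0.55). Its day effect exceeded that of WT by 0.74 ± 0.165 in UHRF1-AID (0.0297), by 0.87 ± 0.192 in DNMT1-AID (0.111) and by 0.56 ± 0.211 in the compound line (0.0845), again none past the fold. STAT2 and IRF7 thus differed in the order of their means, since the compound line had the highest IRF7 mean and the lowest STAT2 mean of the degron lines. Neither gene was called between degron lines at day 4, so the order is a description.

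**Figure D1:**
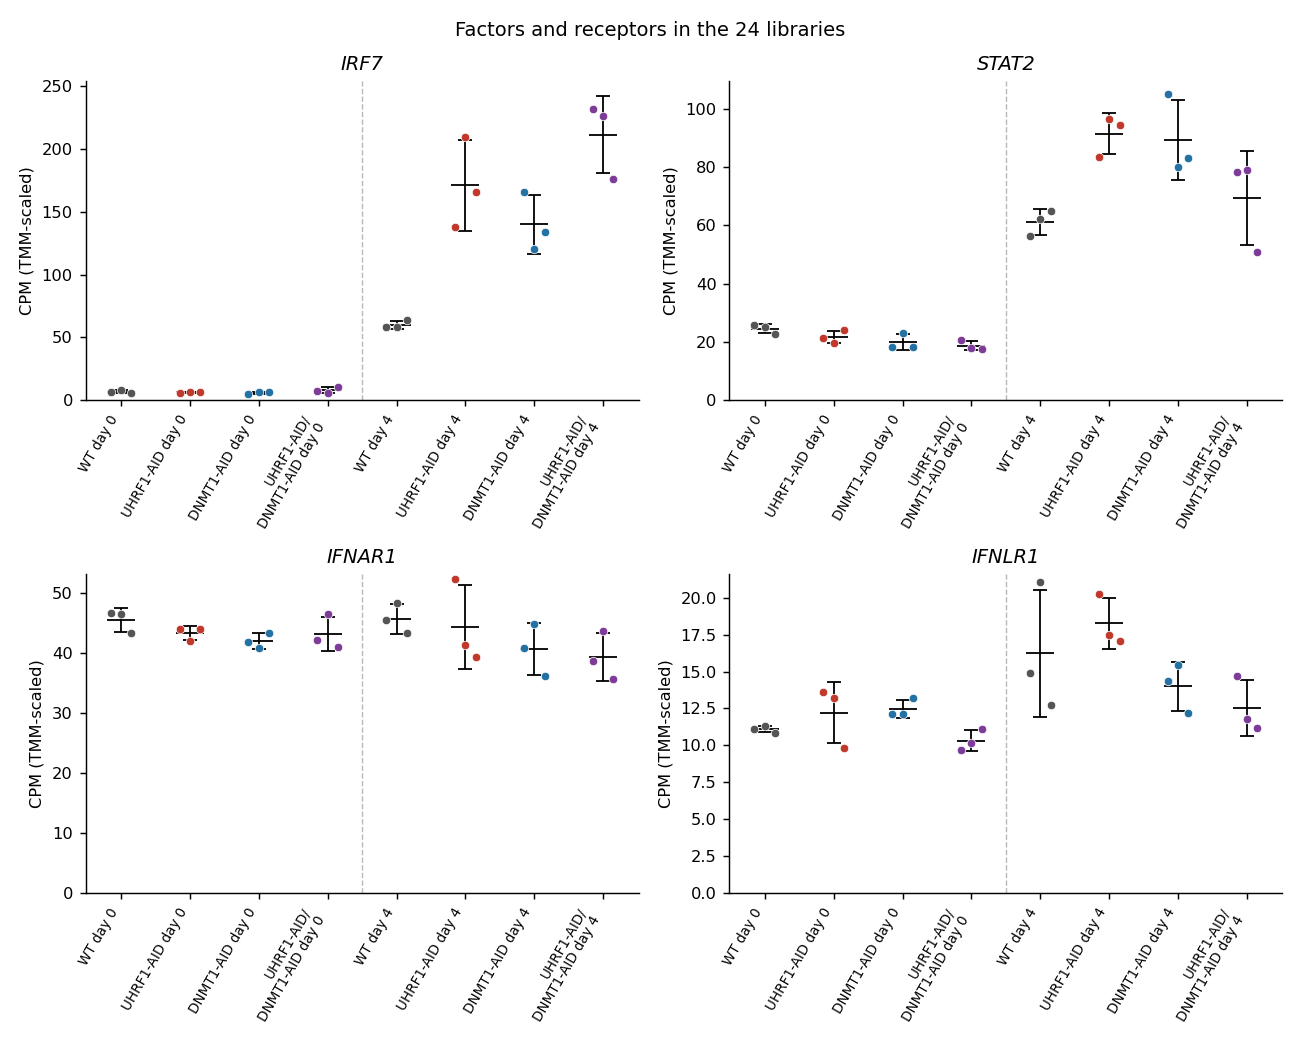
Levels of IRF7, STAT2, IFNAR1 and IFNLR1 (vertical axes, CPM, linear from 0) in the 24 libraries; points are libraries, the long bar is the mean and the whiskers the SD of 3, with day 0 left of the dashed line. IRF7 stood between 121 and 232 CPM in the 9 degron libraries at day 4 and between 57.8 and 63.5 CPM in WT, while IFNAR1 group means stayed between 39.3 and 45.7 CPM.

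IRF9 (ENSG00000213928, chromosome 14, 24161053 to 24166565), the DNA-binding subunit of ISGF3, could not be measured. It held between 0 and 8 counts in the 24 libraries, and was not tested in any comparison. Of its 3794 exon bases, as counted, 48.4% lie inside exons of ENSG00000259529, a gene model that spans chromosome 14 from 24151218 to 24167402 and itself held between 0 and 6 counts. In GENCODE release 44, whose build is also hg38, 8 of the 9 exons of the main IRF9 transcript, and 93.1% of its bases, lie inside that model. How reads on 2 genes were treated in the counting is not given in the sources used here, and the effect of this on IRF9 was not tested. The count therefore says nothing on whether IRF9 moved with STAT2. The other 8 members share no exon base with another gene of the tables. IFNAR2 and IL10RB, the partner chains of the receptors, are in the same position, with 83.2% and 38.1% of their exon bases inside another gene. Of the bases of their main transcripts, 93.1% and 89.2% lie in exons of another gene.

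Over the 4 comparisons of day 4 with day 0, 2 members were called in WT, IRF7 and STAT2, against 11.9% of genes. In UHRF1-AID 3 were called, with IFNL3 added (edgeR adjusted p = 0.000935), against 21.9% of genes, and 5, with IFNL1 and IFNL2, without day 0 replicate 1, 2 or 3 or day 4 replicate 1. In DNMT1-AID the 2 factors were called, against 15.3%. In the compound line 5 were called, the factors with IFNL1 (0.00463), IFNL2 (4.73e-06) and IFNL3 (0.00117), against 26.6%. The lambda genes called over time were at 0 at day 0 and passed the filter only through day 4, so these calls are not read against the shares. With low counts kept in, the 3 lambda genes were called in UHRF1-AID and DNMT1-AID as well, IFNB1 was called in the compound line (edgeR adjusted p = 0.0336), and none of the 4 ligands was called in WT, where that of IFNL3 was 0.0632. The DNMT1-AID fit also called IFNL1 when DNMT1-AID day 0 replicate 1, 2 or 3 or day 4 replicate 3 was left out, and IFNL3 without day 4 replicate 2. No test of the difference in day effect could be made for the ligands, as WT at day 0 was at 0.

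**Figure D2:**
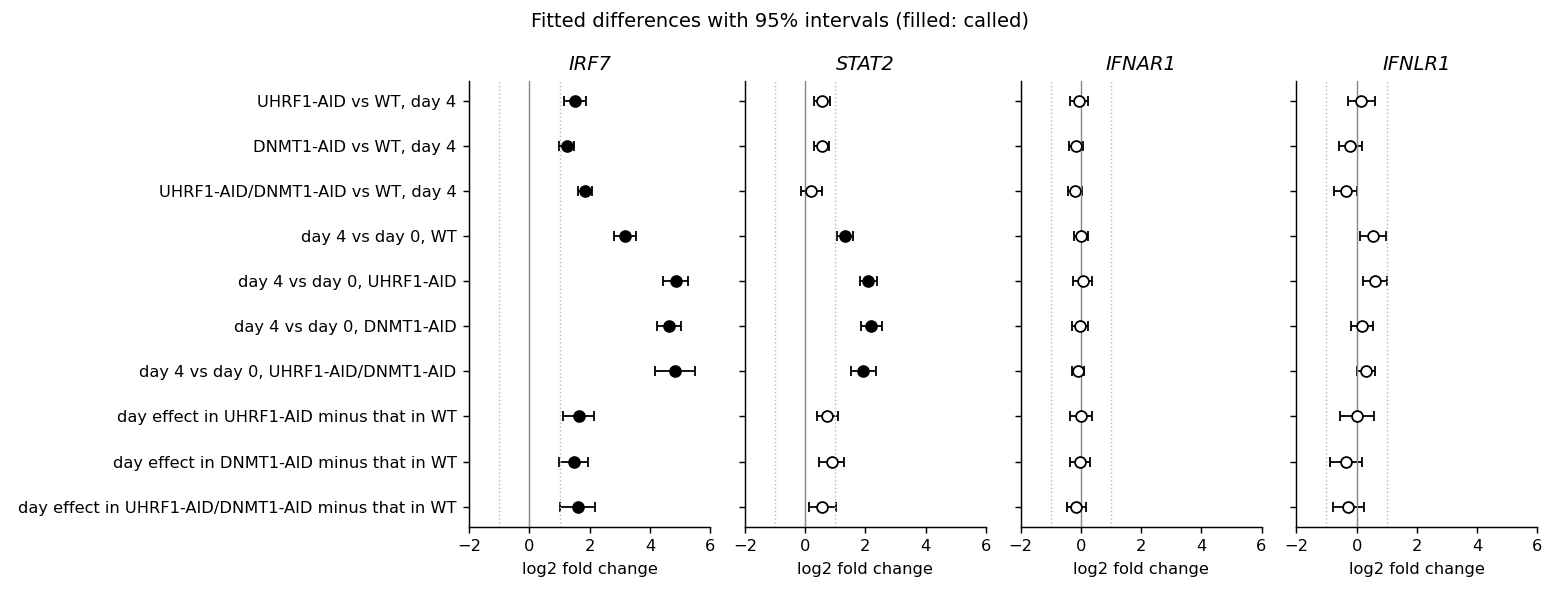
Fitted log2 fold changes (horizontal axes) with 95% intervals for 4 members in 10 comparisons (rows); filled points were called, and dotted lines mark a log2 fold change of 1 in either direction. IRF7 was called in all 10, STAT2 in the 4 comparisons of day 4 with day 0 and the receptor chains in none.

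The degron lines were also set against each other at day 4. Between UHRF1-AID and DNMT1-AID no member was called by edgeR (0 of 6 tested, against 5.31% of genes), none had an unadjusted p under 0.05, and DESeq2 called none. The log2 difference of IRF7 was 0.25 (95% interval -0.14 to 0.64), that of STAT2 -0.01 (-0.30 to 0.29), that of IFNL1 0.83 (-0.51 to 2.17) and that of IFNL3 0.40 (-0.795 to 1.598). The intervals of the ligands are wide and include a log2 difference of 1. The compound line exceeded DNMT1-AID in IFNL1 by 2.37 ± 0.610 (edgeR adjusted p = 0.0206) and in IFNL2 by 2.25 ± 0.535 (0.00616), 2 of 7 members tested against 6.84% of genes, with the lambda genes past the filter through the compound line. IFNL3 was 1.59 ± 0.632 above (0.107), and IRF7 0.60 ± 0.128 above (0.00552), under the fold required. These calls rested on single libraries. IFNL2 alone was called without DNMT1-AID replicate 2 or 3 or without compound line replicate 2, and IFNL1 alone without compound line replicate 1 or with all 24 libraries in 1 fit. IFNL2 and IFNL3 were called without DNMT1-AID replicate 1, and all 3 without compound line replicate 3, as with the replicate block. Between the compound line and UHRF1-AID none of 7 members was called, by edgeR or DESeq2, against 5.13% of genes. The estimates for IFNL1, IFNL2 and IFNL3 there were 1.54 ± 0.709, 1.01 ± 0.587 and 1.18 ± 0.587, and 2 members, IFNLR1 (-0.50 ± 0.166) and STAT2 (-0.36 ± 0.161), had an unadjusted p under 0.05. Without UHRF1-AID replicate 2 IFNL2 was called.

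The ligand reads and the factors were then put side by side per library at day 4. Over the 4 ligand genes the WT libraries held 8, 2 and 5 counts, UHRF1-AID 29, 103 and 51, DNMT1-AID 47, 23 and 18, and the compound line 185, 127 and 40. In UHRF1-AID and in the compound line the order of the 3 libraries was the same for ligand counts and for IRF7. In DNMT1-AID the highest library was the same and the other 2 were exchanged, and in WT the orders differed. As every order is of 3 libraries, this is a description. The ligand sum in compound line replicate 3 (40) was under that of UHRF1-AID replicates 2 and 3 (103 and 51), and its IRF7 (176 CPM) lay between theirs (210 and 166). STAT2 was lowest in that same library.

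**Figure D3:**
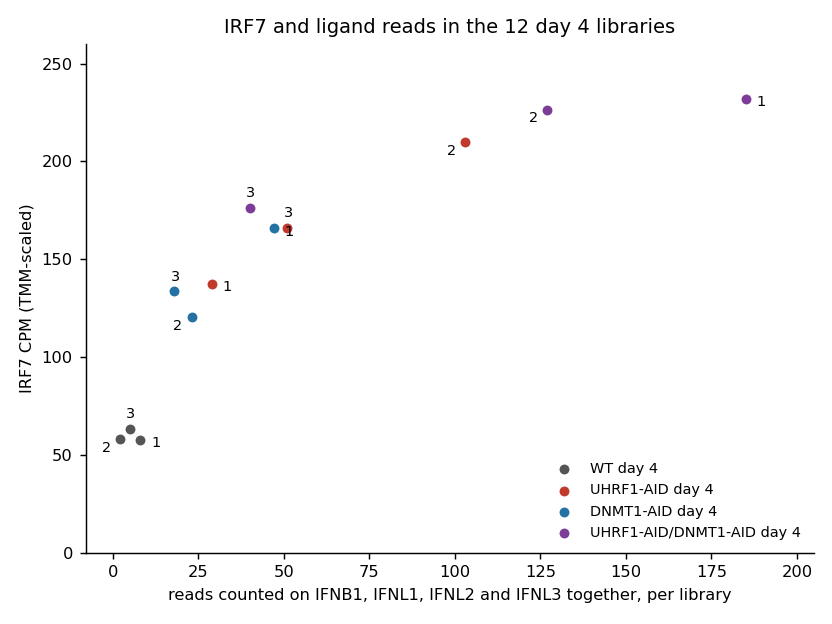
IRF7 level (vertical axis, CPM, linear from 0) against the reads counted on IFNB1, IFNL1, IFNL2 and IFNL3 together (horizontal axis) in the 12 day 4 libraries, numbered by replicate and coloured by line. WT libraries held 2 to 8 ligand counts and 57.8 to 63.5 CPM of IRF7, and degron libraries 18 to 185 counts and 121 to 232 CPM.

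The genes most like the factors in pattern over the 24 libraries were found by Pearson correlation of log2 CPM among 15699 genes. For IRF7 they were IFITM3 (r = 0.992), RIGI (0.991), OASL (0.990), BATF2 (0.990) and DTX3L (0.989). For STAT2 they were CTSB (0.985), DDX60 (0.984), ERAP1 (0.984), SCARB2 (0.982) and SP100 (0.982). OASL, DTX3L and DDX60 are also among the ISGF3 targets listed here. IRF7 and STAT2 correlated at 0.965 with each other and, in the same order, at -0.192 and -0.0821 with IFNAR1 and at 0.609 and 0.671 with IFNLR1. The ligands IFNL1, IFNL2 and IFNL3 correlated with IRF7 at 0.862, 0.870 and 0.940 and with STAT2 at 0.784, 0.788 and 0.889. These libraries share lines and days, so the values describe the groups as much as the libraries.

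Other genes of the pathway were read from lists by role. Of 26 genes known as targets of ISGF3, all tested, 23 were called in UHRF1-AID against WT at day 4, 20 in DNMT1-AID cells and 21 in the compound line, each of them higher. The shares over all genes were 6.99%, 2.57% and 11.7%. IFI44L, MX2, OAS2, XAF1 and SAMD9L did not pass the filter between the WT groups. They were tested here through the degron lines, where they are higher, so their calls are not read against these shares. The median log2 differences of the targets were 1.90, 1.68 and 1.89, beside medians of 0.027, 0.0017 and 0.016 over all genes tested. OAS2, which makes the second messenger that activates RNase L, was higher by 5.80 ± 0.360 in DNMT1-AID (edgeR adjusted p = 2.32e-06). It entered that test only through DNMT1-AID, where it is high, so this p-value carries no weight of its own. IFI44 was higher by 1.64 ± 0.138 in DNMT1-AID, and ISG15, a ubiquitin-like modifier, by 1.38 ± 0.124. In WT itself all 21 targets tested rose from day 0 to day 4, and all 26 rose in each degron line, where between 11.9% (WT) and 26.6% (compound line) of all genes were called. Their day effect exceeded that of WT in 10 of 22 tested in UHRF1-AID, 4 of 21 in DNMT1-AID cells and 9 of 22 in the compound line, against 2.27%, 0.139% and 5.41% of all genes. Between a line and WT at day 0 only 17 or 18 of the 26 targets passed the filter. Those that passed it through day 4 alone are not read against the shares over time.

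Among the 13 other STATs and IRFs, STAT5A alone was called against WT at day 4. It was 1 of 11 tested in UHRF1-AID and 1 of 11 in the compound line, against 6.99% and 11.7% of genes. In DNMT1-AID 0 of 10 were called, against 2.57%. STAT5A held 0 counts in WT, 50 in UHRF1-AID, 2 in DNMT1-AID cells and 63 in the compound line, summed over 3 libraries. It passed the filter only through the lines where it is high, so its calls are not read against the shares. IRF1, an early interferon-gamma response factor, differed from WT at day 4 by 0.70 ± 0.153, 0.56 ± 0.142 and 0.50 ± 0.145 on the log2 scale for UHRF1-AID, DNMT1-AID and the compound line (edgeR adjusted p = 0.0130, 0.0260 and 0.00911), under the fold required. IRF3, the factor that responds first to nucleic acid sensors and is controlled mainly at the protein level, showed 0.38 ± 0.121, 0.10 ± 0.114 and 0.23 ± 0.109 in the same order (edgeR adjusted p = 0.0548, 0.634 and 0.103).

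Of 7 feedback inhibitors, SOCS1, which blocks JAK kinases, was called in all 3 lines against WT, at 1.08 ± 0.238, 1.30 ± 0.210 and 1.52 ± 0.214. USP18, which removes ISG15 and occupies IFNAR2, was called in UHRF1-AID (1.13 ± 0.311, edgeR adjusted p = 0.0468) and in the compound line (1.59 ± 0.354, 0.0272), and showed 1.24 ± 0.289 in DNMT1-AID (0.0668). No other inhibitor was called. For UHRF1-AID, DNMT1-AID and the compound line the calls were 2, 1 and 2 of 7 tested, against 6.99%, 2.57% and 11.7% of genes. In the compound line 1 of the 7 was already higher than WT at day 0, against 1.31% of genes. Of 7 other receptor chains and kinases, all tested, none was called against WT at day 4, where 6.99%, 2.57% and 11.7% of genes were. The partner chains, uncertain for the overlap given above, showed 0.03 ± 0.402, -0.45 ± 0.381 and -0.39 ± 0.384 for IFNAR2 and -0.60 ± 0.448, 0.35 ± 0.389 and -0.60 ± 0.432 for IL10RB.

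**Figure D4:**
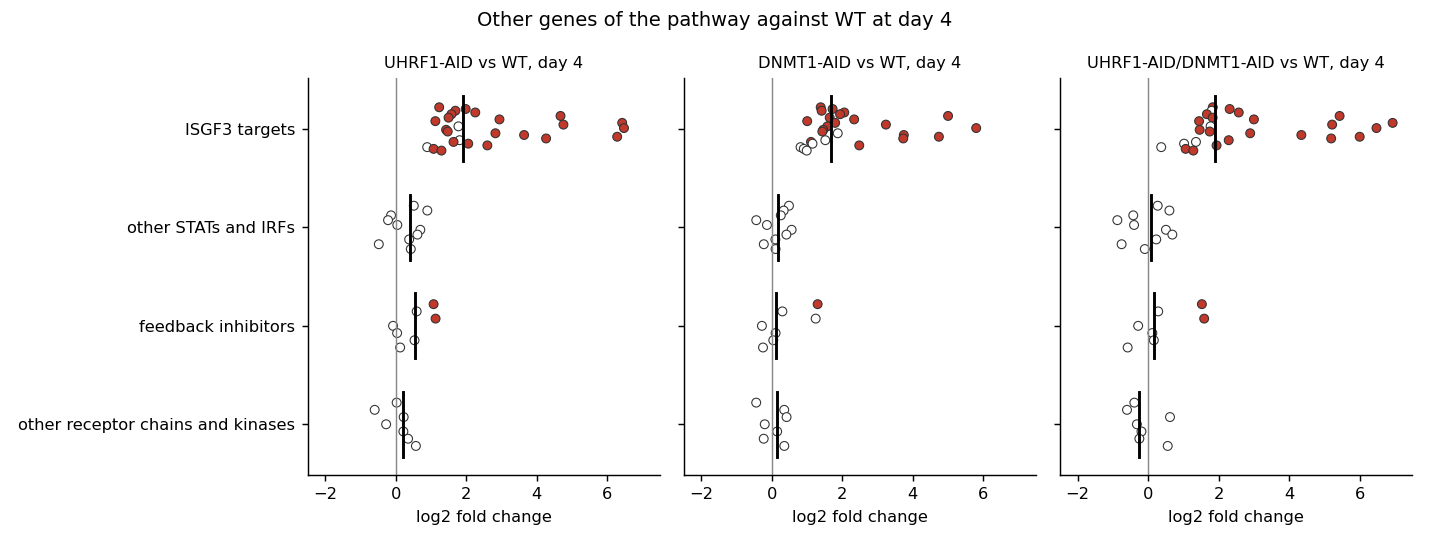
Log2 fold changes against WT at day 4 (horizontal axes) of the genes in 4 lists (rows), 1 panel per degron line; each point is a gene, filled where called, and the black bar is the median. In the ISGF3 row 23, 20 and 21 of 26 points are filled, and no point is filled for receptor chains and kinases; STAT5A, at 0 counts in WT, has no fold and is not drawn.

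Limits of the libraries bear on these values. Spearman's rho across 15699 genes between exon length and a library's deviation from the mean log2 CPM over the 24 libraries was -0.139 in WT day 0 replicate 3 against 0.235 and 0.232 in replicates 1 and 2. It was -0.126 in UHRF1-AID day 4 replicate 2, the library with most ligand reads of that line, against 0.151 and 0.103, and went from between 0.0394 and 0.0766 at day 0 to between -0.174 and -0.145 at day 4 in the compound line. The part of this in the results was not tested. The tagged genes were read in every library, although a degron acts on protein and leaves no mark on counts that would check the labels. DNMT1 lay between 9.24 and 16.5 CPM in the lines carrying its tag at day 4 and between 23.7 and 65.0 in the others, and UHRF1 between 17.5 and 82.9 in all 12. File headers place all 12 day 0 libraries and the 3 of UHRF1-AID at day 4 in 1 alignment folder, without spike-in reads, and the other 9 day 4 libraries in a second one, with spike-ins at 0.891% to 1.65% of counts. Hence the comparisons of UHRF1-AID with the other lines at day 4, the day effects of the other lines and the difference in day effect between UHRF1-AID and WT, cannot be told apart from that split. Those of DNMT1-AID and the compound line with WT at day 4 and with each other lie within 1 folder, as does the day effect of UHRF1-AID. Within that folder, UHRF1-AID at day 4 against WT at day 0, a contrast chosen after seeing the data, called IRF7, STAT2 and IFNL3. It also holds the days of treatment, over which WT itself rose 9.08-fold in IRF7 and 2.51-fold in STAT2. Those WT rises cross the folders and cannot be told apart from the split either. IFNL3 had no counts in WT at day 0. These calls therefore do not compare the lines alone.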

How the data were processed

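RNA-seq of poly(A) RNA (150-base paired reads) was made from HCT116 cells in 8 groups of 3 libraries. The authors aligned reads to hg38 with STAR and deposited raw counts per gene from featureCounts, whose strand setting and handling of shared reads are not given in the sources used here. The deposited counts on genes ranged from 15824804 to 25073821 per library, and spike-ins were left out. The members and lists were chosen with earlier results of these data known.

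CPM were scaled by TMM over the 24 libraries. Counts were tested with edgeR 4.0.16 (R 4.3.3; filterByExpr, TMM, robust quasi-likelihood fit of the groups compared, Benjamini-Hochberg adjustment over all genes tested), and called at an adjusted p under 0.05 with a log2 fold change past 1, the study's thresholds. The scripts were tested on simulated data. Of genes given a 2-fold change, 77% had an edgeR adjusted p under 0.05 in UHRF1-AID against WT at day 4. In the difference in day effect between UHRF1-AID and WT it was 33%. With a 4-fold change the shares were 97% and 87%. A difference in day effect that was not called may therefore have been missed. Alternatives were DESeq2 1.42.0, RLE scaling, no filter on low counts, no minimum fold change, all libraries in 1 fit, the replicate block and leaving out each library. The binomial intervals of the ligand ratios and the floors cover counting error only. The intervals of fitted log2 differences come from the edgeR fit and take in the spread between libraries.

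Same-numbered libraries of UHRF1-AID at day 4 and day 0 deviated together (correlations 0.228, 0.143 and 0.122), the 1 of 13 comparisons with every correlation over 0.1. This pairing is from the data and not the labels. The block left its 3 calls in place.

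Named were all 9 members, from each other list up to 3 called genes with the smallest p against WT at day 4, always IFNAR2, IL10RB, IRF1, IRF3 and USP18, the tagged genes, and the 5 genes most correlated with each factor. Other genes were named after their values were seen. Some genes that this rule names are not reported here.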

Additional observations from a re-analysis of the deposited data

Results flagged for a closer look

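The day effect of IRF7 differed between each degron line and WT in the direct test of the difference. It was larger than in WT by 1.63 in UHRF1-AID, 1.46 in DNMT1-AID cells and 1.59 in the compound line on the log2 scale (edgeR adjusted p = 0.00457, 0.0159 and 0.00247). That of STAT2 was larger than in WT by 0.74 in UHRF1-AID (0.0297), under the fold required for a call. The IRF7 call in DNMT1-AID was lost in 5 of 18 other settings. Both UHRF1-AID differences cannot be told apart from the split in alignment folders.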

How the results depend on the processing

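The number of members called moved mostly through the ligands, whose counts are low. Without the filter on low counts, with DESeq2 and with all 24 libraries in 1 fit, the count was 4 in place of 2 for UHRF1-AID against WT at day 4, 5 in place of 3 for the day effect of UHRF1-AID and 5 in place of 2 for that of DNMT1-AID. Without the filter it was 3 in place of 1 for DNMT1-AID against WT at day 4 and 2 in place of 0 for the compound line against UHRF1-AID. With no minimum fold change STAT2 joined, giving 2 in place of 1 for DNMT1-AID against WT at day 4 and for the difference in day effect of UHRF1-AID. With all 24 libraries in 1 fit the count was 1 in place of 2 for the compound line against DNMT1-AID. Against DNMT1-AID day 0 in its own alignment folder, chosen after seeing the data, UHRF1-AID at day 4 gave 3 in place of 0, a contrast that also holds the day. The replicate block gave 0 in place of 1 for the difference in day effect of DNMT1-AID (IRF7, edgeR adjusted p = 0.0822) and 3 in place of 2 for the compound line against DNMT1-AID, and changed no other count. Whether a replicate number stands for 1 clone on both days is not given. Correlations of same-numbered libraries were 0.0789, 0.0911 and 0.0915 in the day effect of the compound line.

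Leaving out 1 library gave between 1 and 4 calls for UHRF1-AID against WT at day 4, 3 and 4 for the compound line, 3 and 5 for the day effect of UHRF1-AID, 2 and 3 for that of DNMT1-AID, 0 and 1 for the difference in day effect of DNMT1-AID, 1 and 3 for the compound line against DNMT1-AID, and 0 and 1 for the compound line against UHRF1-AID. No result reversed.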
